A study of Mus musculus with 18 samples.

Results

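Naive CD8 T cells kept for 20 h in IL-4 and IL-7 together were compared with naive CD8 T cells taken straight from the spleen. Arrays were chosen by their titles, 2 of naive cells in both cytokines and 2 of naive cells ex vivo, which makes 4 of the 18 arrays of the series. The values are log2 RMA values, which are background-corrected and quantile-normalised summaries of the probes of each probe set, and 13770 genes were tested. Each gene was sorted by where it stood after culture. A gene was driven beyond its ex vivo level by IL-4 if it differed from both the ex vivo cells and the cells in IL-7 alone, in the same direction. A gene was held at its ex vivo level if IL-7 alone changed it, IL-4 turned that change back, and the 95% interval of the difference from ex vivo lay between -1 and 1, a 2-fold change either way. A memory-type gene was one at least 1 log2 unit higher in memory than in naive cells ex vivo.

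All cells were of C57Bl/6 genotype and came from F5 mice, a line transgenic for a T cell receptor, so the cells of every group carry the same receptor. Cells were sorted from spleen by flow cytometry. The cultured naive cells received IL-4 at 20 ng/mL with IL-7 at 10 ng/mL for 20 h (2 arrays), or IL-7 alone at that dose and time (2 arrays). The memory cells, called TIM in the labels, came from F5 mice immunised 2 times with NP68 peptide and were taken at day 45 (4 arrays ex vivo, 2 after 20 h in IL-7, and 2 after 20 h in both cytokines). The naive cells ex vivo were neither immunised nor cultured (2 arrays). Naive cells in plain medium or in IL-4 alone were not analysed here, so culture itself and IL-7 cannot be told apart in naive cells. Whether an array held RNA of 1 mouse or of a pool is not given in the sources used here, so p-values measure only the spread between these arrays.

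The receptors for IL-7 and for IL-4 both contain the common gamma chain. IL-7 signals mainly through STAT5 and keeps resting naive T cells alive, in part through BCL2, whereas IL-4 signals mainly through STAT6 and, in CD8 T cells, is known for inducing EOMES and for giving rise to innate-type memory cells. Memory CD8 T cells differ from naive ones by effector genes such as Ifng, Ccl5 and the granzymes, by the transcription factors T-bet and EOMES, and by the chemokine receptor CXCR3. Immediate early genes such as Fos, Fosb and the NR4A receptors are known to be switched on by a stimulus with no need for new protein, and to be switched off again soon after.

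The field for cell type on the naive arrays also carries the word memory, so the titles were set against defining markers. Cd8a stood at 12.99 and 13.21 in both cytokines, against 12.47 and 12.14 ex vivo. Cd4 stood between 4.55 and 4.79 on all 4 arrays. These 2 genes do not tell naive from memory cells. Of 8 CD8 T cell markers tested, only Cd8a was called higher than ex vivo and 2 were lower, with a median change of -0.34. Over all genes 8.9% were higher and 5.85% lower. Cd3g, a chain of the T cell receptor complex, fell by 1.26 (adjusted p = 0.00518). Ifng, the cytokine that marks effector and memory cells, stood at 3.63 and 4.49 in both cytokines, against 4.28 and 3.82 in naive cells ex vivo, where the filter value for a detected probe set was 4.06. Marker lists were summed as linear values and the sum is given as log2, so the brightest member weighs most. Red cell precursor markers stood at 5.94 to 6.08 in both cytokines, against 6.31 to 6.59 ex vivo. Platelet markers stood at 8.58 to 8.80, against 8.12 to 8.27, and myeloid markers at 7.65 to 7.77, against 8.07 to 8.09. The part of such cells in the results was not tested. In bulk RNA, fewer cells of a type and less RNA per cell cannot be told apart. The 2 arrays of naive cells in both cytokines differed more than those of the other naive groups. The SD of their difference over genes was 0.57, against 0.37 in IL-7 alone and 0.38 ex vivo. They correlated at 0.975 with each other, while array 1 correlated with naive IL-7 1 at 0.978 and array 2 with naive IL-7 2 at 0.989. Each was thus closest to an array of cells in IL-7 alone. The array labelled memory medium 2 correlated with memory ex vivo 2 at 0.995 and with its own group at 0.956. It enters no comparison here but does enter the shared estimate of spread, so counts are also given without it. The 3' minus 5' difference of the Gapdh probes was 2.88 and 2.87 in both cytokines, against 2.69 and 2.56 ex vivo, and its part in the results was not tested.

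After culture in both cytokines, 1226 genes were higher than ex vivo, which is 8.9% of those tested, and 806 were lower, or 5.85%. The set was split by what IL-7 alone did, with the same ex vivo arrays in both comparisons. Of the higher genes, 582 were also higher in IL-7 alone, with no call between the cultures. Of the lower genes, 529 were lower in both cultures in that way. A missing call does not show equal levels. In 786 of these genes, higher and lower together, the 95% interval of the difference between the cultures lay within -1 to 1. In these genes shared with IL-7 culture, the median change was 1.21 in both cytokines against 1.15 in IL-7 alone for the higher ones, and -1.30 against -1.31 for the lower ones. IL-4 drove 95 genes up and 30 genes down beyond ex vivo. It held 20 genes at the ex vivo level, and the remaining changed genes, 547 higher and 247 lower, were called against ex vivo only. With 2 arrays a group these counts depend on single arrays: the total of 2032 (14.8%) became 910 without naive ex vivo 1, 699 without naive ex vivo 2 and 1042 without array 1 of naive cells in both cytokines. Without memory medium 2 it was 2991, with 1907 higher and 1084 lower, and all 2032 genes were among them.

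**Figure D1:**
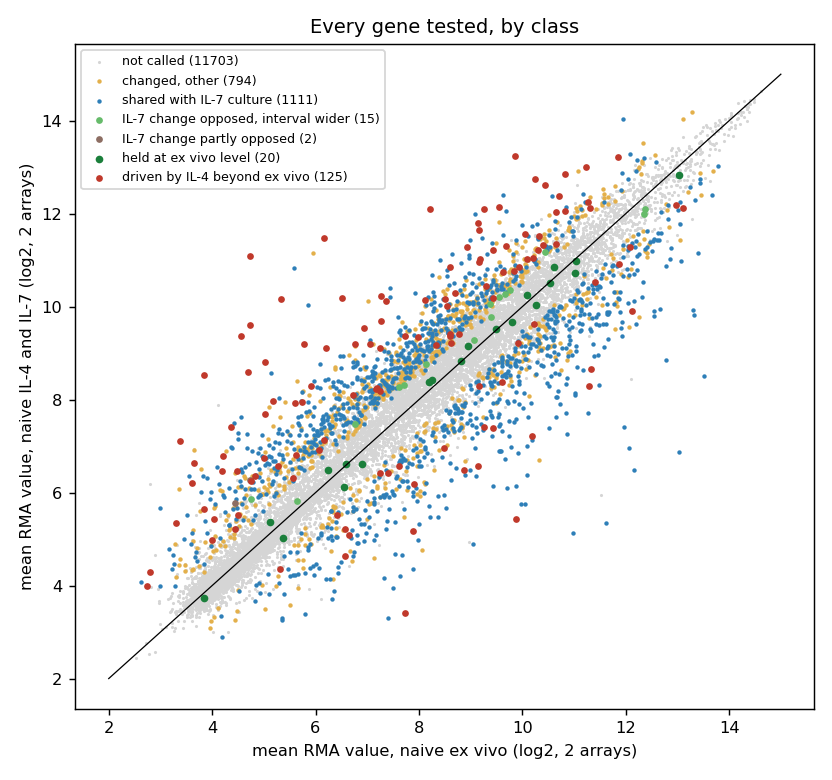
Mean log2 RMA value of each of the 13770 genes in naive cells in IL-4 and IL-7 (vertical axis) against naive cells ex vivo (horizontal axis), 2 arrays each, coloured by class. The diagonal marks equal levels. The driven genes (red, 95 higher and 30 lower) lie off the diagonal on both sides, the 20 held genes (dark green) lie along it, and the genes shared with IL-7 culture (blue) number 582 above it and 529 below it.

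The largest rise was that of D630039A03Rik, an uncharacterised transcript, which IL-7 alone also raised. It stood at 11.01 and 11.15 in both cytokines, against 9.09 and 8.88 in IL-7 alone and 4.83 and 4.63 ex vivo. The 3 groups were apart from each other, and the 6.35 log2 rise over ex vivo (SE 0.26, adjusted p = 7.54e-09) amounted to 81.6-fold. Cxcr6, the receptor of the membrane-bound chemokine CXCL16 that guides T cells into tissue, stood at 11.98 and 10.31 in both cytokines, against 8.11 and 7.76 in IL-7 alone and 6.39 and 5.51 ex vivo. It rose 36.7-fold over ex vivo (5.20, SE 0.74, adjusted p = 0.000696), and its difference from IL-7 alone just missed the threshold (3.21, adjusted p = 0.0506). Etfbkmt, a mitochondrial methyltransferase, stood at 10.86 and 10.82 in both cytokines, 10.41 and 10.03 in IL-7 alone and 5.99 and 5.17 ex vivo. Both cultures were far above the ex vivo arrays, and the rise of 5.26 over ex vivo (adjusted p = 0.00164) was shared with IL-7 culture. These 3 rises kept their calls in every alternative tried.

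Of the 8 largest falls, 7 were shared with IL-7 culture, and the other, Ctla2a, was driven by IL-4. Ramp3, a partner of calcitonin-family receptors, stood at 4.59 and 6.11 in both cytokines, against 5.10 and 6.24 in IL-7 alone and 11.29 and 11.96 ex vivo. Fosb, a subunit of the AP-1 transcription factor, stood at 4.11 and 6.17 in both cytokines, against 4.98 and 5.96 in IL-7 alone and 11.31 and 10.65 ex vivo. Neither culture overlapped with the ex vivo arrays, while the 2 cultures overlapped with each other. The falls came to -6.28 for Ramp3 (77.4-fold lower, adjusted p = 0.00445) and -5.84 for Fosb (57.2-fold lower, adjusted p = 0.00169). Klf4, a quiescence factor of T cells, fell by 5.66 (adjusted p = 0.000845), Rgs2, an inhibitor of G-protein signalling, by 5.10 (adjusted p = 0.000663) and Crem, a cAMP-responsive repressor, by 4.55 (adjusted p = 0.00572). In IL-7 alone Crem fell by 3.45 (adjusted p = 0.0254). Fosl2, another AP-1 subunit, fell by 6.16 (adjusted p = 0.00863), but its adjusted p was 0.0675 without array 1 of the cells in both cytokines. Nr4a3, an orphan nuclear receptor induced by antigen-receptor signals, stood at 6.57 and 10.45 in both cytokines, against 13.37 and 13.68 ex vivo, so it fell by 5.01 (adjusted p = 0.0383), but missed the threshold without naive ex vivo 1 (0.118), naive ex vivo 2 (0.161) or array 1 of the cells in both cytokines (0.286).

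Across the immediate early genes, 13 of 28 tested fell in both cytokines and none rose, beside 5.85% and 8.9% of all genes. Their median change was -1.51, beside 0.05 over all genes. In IL-7 alone, which lowered 5.8% and raised 7% of all genes, 11 fell and 1 rose, with a median of -1.70. No member was called between the 2 cultures. Fos, an AP-1 subunit, stood at 9.18 and 10.67 in both cytokines, against 10.85 and 10.48 in IL-7 alone and 13.70 and 12.93 ex vivo, so it fell by 3.39 (adjusted p = 0.00388). Dusp1, a phosphatase that switches off MAP kinases, fell by 2.05 (adjusted p = 0.00352). Egr1 and Cd69 did not pass the test, at -1.44 and -1.12. The count of 13 was 6 without naive ex vivo 1, 7 without naive ex vivo 2 and 5 without array 1 of the cells in both cytokines.

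IL-4 drove 95 genes up beyond both ex vivo and IL-7 alone, and for 78 of them IL-7 alone made no call against ex vivo. Most of all genes tested had no such call either, since IL-7 alone raised 7% and lowered 5.8%. Comparison with IL-7 alone called 121 genes higher in both cytokines (0.879% of those tested) and 52 lower (0.378%). The median change of the 95 was 1.77 over ex vivo and 1.64 over IL-7 alone, and -0.03 for IL-7 alone over ex vivo. The other genes of the set included 12 that IL-7 had already raised and 5 that IL-7 had lowered, Baiap3, Dapp1, Hsd11b1, Lzts1 and Rab19. The class rests on all 3 groups of naive arrays: it held 60 genes without naive ex vivo 1, 41 without naive IL-7 1, 52 without naive IL-7 2, 53 without array 1 of the cells in both cytokines and 166 without array 2. Of the 95, 32 kept the class whichever naive array was left out.

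Cbr3, a carbonyl reductase, was among the largest of these rises. It stood at 10.65 and 9.70 in both cytokines, against 4.81 and 4.98 in IL-7 alone and 5.15 and 5.53 ex vivo. Only the cells with IL-4 were high, and IL-7 alone lay slightly under ex vivo. The rise over ex vivo was 4.83 (SE 0.28, 28.5-fold, adjusted p = 2.72e-07). Pros1, the anticoagulant protein S that also bridges dying cells to phagocytes, stood at 9.46 and 9.28 in both cytokines, against 4.85 and 4.46 in IL-7 alone and 5.02 and 4.10 ex vivo, a 28.1-fold rise (4.81, SE 0.33, adjusted p = 1.58e-06). Slc2a6, a lysosomal sugar transporter, stood at 8.17 and 8.89 in both cytokines, against 3.79 and 4.48 in IL-7 alone and 3.65 and 4.02 ex vivo. Its ex vivo arrays lay under the filter value of 4.06, and the rise was 4.70 (SE 0.28, adjusted p = 2.72e-07).

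Ncoa7, a coactivator of nuclear receptors that is also tied to oxidative stress, stood at 12.13 and 12.09 in both cytokines, against 7.81 and 8.01 in IL-7 alone and 8.05 and 8.38 ex vivo, a 14.9-fold rise (3.89, adjusted p = 1.42e-05). Tafa3, a secreted chemokine-like protein, rose by 4.88 over ex vivo (adjusted p = 2.15e-06) to 9.62 and 9.61, against 4.88 and 4.59. Its level in IL-7 alone, 5.94 and 5.50, lay between the other groups. Prnp, the prion protein, stood at 10.16 and 10.19 in both cytokines, against 6.78 and 6.93 in IL-7 alone and 6.28 and 6.75 ex vivo (3.66, adjusted p = 2.74e-05). Ptpn3, a tyrosine phosphatase, stood at 7.31 and 6.92 in both cytokines, against 3.44 and 3.87 in IL-7 alone and 3.44 and 3.33 ex vivo (3.73, adjusted p = 1.81e-06). In all of these the arrays with IL-4 stood clear of the other 4. Tmie, a membrane protein of inner-ear hair cells, stood at 12.03 and 10.91 in both cytokines, 8.25 and 8.34 in IL-7 alone and 6.43 and 5.90 ex vivo. It rose by 5.31 over ex vivo (adjusted p = 9.73e-05) in every alternative, while its difference from IL-7 alone was lost without naive IL-7 1 (adjusted p = 0.153), naive IL-7 2 (0.111) or array 1 of the cells in both cytokines (0.202).

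**Figure D2:**
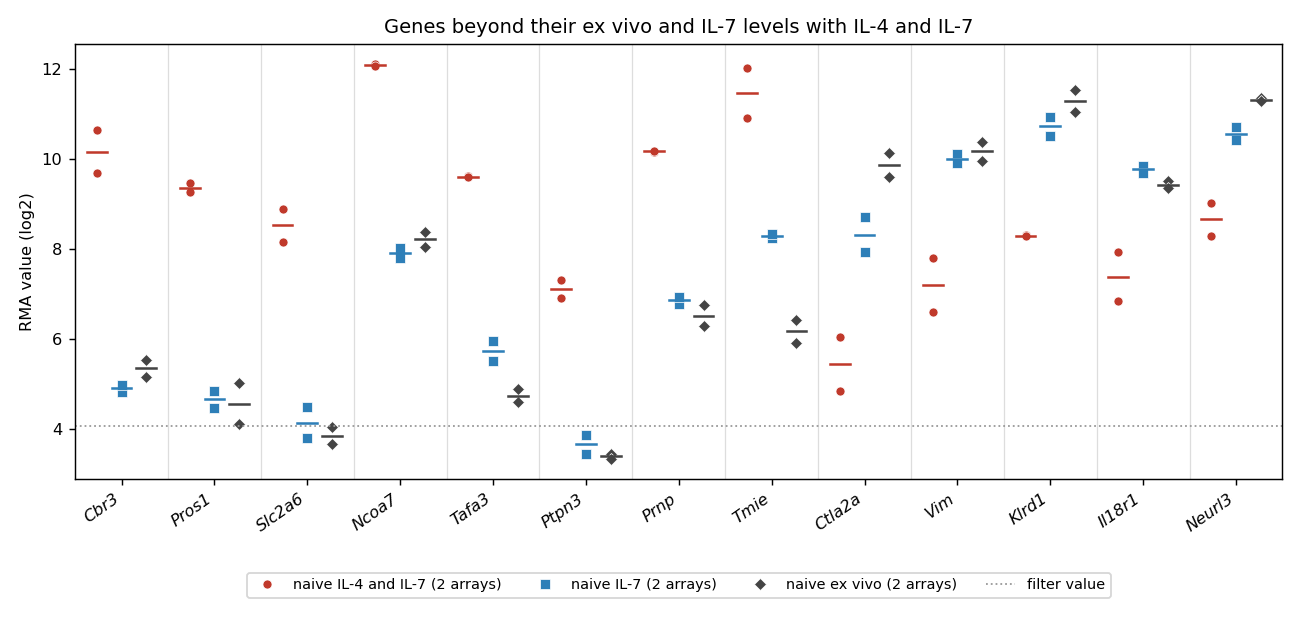
Log2 RMA values of 13 driven genes on each naive array, with naive cells in IL-4 and IL-7 as circles, IL-7 alone as squares and ex vivo as diamonds. Short bars are group means and the dotted line is the filter value of 4.06. In the 8 genes at the left the circles lie above all squares and diamonds, and in the 5 at the right they lie below them.

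Genes of antigen presentation were driven in both directions. H2-DMa, which helps load peptides onto MHC class II, stood at 13.19 and 13.28 in both cytokines, against 10.51 and 10.77 in IL-7 alone and 9.90 and 9.84 ex vivo, a 10.3-fold rise (3.37, SE 0.18, adjusted p = 1.57e-07). H2-DMb2, a chain of the same complex, rose by 1.49 (adjusted p = 0.000588), and H2-Q2, a class I gene, by 2.04 (adjusted p = 0.00014). H2-Ob, a chain of the class II regulator H2-O, stood at 6.63 and 6.52 in both cytokines, against 8.46 and 8.22 in IL-7 alone and 8.91 and 9.35 ex vivo, and fell by 2.56 (adjusted p = 4.16e-05). The summed level of the 7 class II markers was 13.22 to 13.33 in both cytokines, against 10.16 to 10.18 ex vivo, and H2-DMa carried that sum. H2-Aa, a chain of the class II molecule itself, stood at 3.51 and 3.57 in both cytokines, against 4.24 and 3.99 ex vivo, and H2-Ab1 at 4.07 and 4.21, against 4.31 and 3.93. The B cell list summed to between 8.03 and 8.40 in both cytokines, against 7.99 to 8.04 ex vivo. Xbp1, a transcription factor of the unfolded protein response, stood at 13.34 and 12.66 in both cytokines, against 9.84 and 10.55 in IL-7 alone and 11.04 and 11.42 ex vivo. It rose by 1.77 over ex vivo (adjusted p = 0.0124), a call lost without naive ex vivo 1 or array 1 of the cells in both cytokines, where adjusted p reached 0.0899. Septin4, a filament protein, rose by 3.90 (adjusted p = 1.42e-05), Tdgf1, a growth factor co-receptor, by 3.04 (adjusted p = 0.000171) and Gata1, an erythroid transcription factor, by 2.57 (adjusted p = 8.02e-05), each in every alternative.

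STAT6 is known to prefer TTC and GAA with 4 bases of any kind between them (the N4 pattern), and STAT5 the same letters with 3 bases between them (the N3 pattern). Both patterns read the same on either strand, and they were searched in the RefSeq promoter windows from 250 bases before to 50 after each start site (build GRCm38.p6). Of the 95 genes driven up, 76 had a window, and 16 of their 94 windows (17%) held the N4 pattern, beside 6.95% of all 32851 windows and 5.48% of those of genes tested. The share was 8.29% for higher genes shared with IL-7 culture (47 of 567 windows), 4.17% for held genes (1 of 24) and 12.9% for genes driven down (4 of 31). The N3 pattern was in 11.7% of the windows of genes driven up (11 of 94) and 16.1% of those of genes driven down (5 of 31). It was in 8.3% of all windows and 6.85% of those of genes tested. Ranked by the smaller of their differences from ex vivo and from IL-7 alone, the first 8 genes driven up were Cbr3, Pros1, Slc2a6, Ncoa7, Tafa3, Ptpn3, Prnp and Tmie. Of these, Pros1 had an N4 match in its only window, at -222 from the start site. Ncoa7 had one in 1 of its 2 windows, at -191. The windows with a match are shown with that match in capitals. Pros1 and Tafa3 had an N3 match, which is not marked. A match is a description of these letters and not a binding site.
Pros1, chr16:62854057-62854356, plus strand: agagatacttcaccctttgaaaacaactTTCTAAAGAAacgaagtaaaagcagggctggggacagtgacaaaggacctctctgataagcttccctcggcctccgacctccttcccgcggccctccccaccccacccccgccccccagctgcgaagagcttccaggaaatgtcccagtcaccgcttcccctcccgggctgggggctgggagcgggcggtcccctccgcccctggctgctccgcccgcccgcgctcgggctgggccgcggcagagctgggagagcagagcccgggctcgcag
Ncoa7, chr10:30655818-30656117, minus strand: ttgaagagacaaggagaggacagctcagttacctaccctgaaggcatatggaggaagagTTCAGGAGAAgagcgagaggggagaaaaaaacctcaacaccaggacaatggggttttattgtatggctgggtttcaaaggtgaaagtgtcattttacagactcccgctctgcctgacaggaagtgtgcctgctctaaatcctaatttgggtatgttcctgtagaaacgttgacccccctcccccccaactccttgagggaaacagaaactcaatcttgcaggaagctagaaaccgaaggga

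IL-4 drove 30 genes down beyond ex vivo, and 25 of them had no call in IL-7 alone. Over all genes too, most had none there, with 7% raised and 5.8% lowered. Several of the 30 are known from effector, memory or NK cells. Klrd1, the CD94 chain of inhibitory and activating NK receptors, stood at 8.31 and 8.28 in both cytokines, against 10.94 and 10.52 in IL-7 alone and 11.54 and 11.05 ex vivo. Il18r1, the ligand-binding chain of the IL-18 receptor, stood at 6.84 and 7.93 in both cytokines, against 9.84 and 9.70 in IL-7 alone and 9.51 and 9.36 ex vivo. The arrays with IL-4 lay below all others for both genes. Klrd1 fell by 3.0 (SE 0.41, adjusted p = 0.000515) and Il18r1 by 2.05 (SE 0.31, adjusted p = 0.00102).

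Vim, the intermediate filament protein vimentin, stood at 7.81 and 6.61 in both cytokines, against 10.12 and 9.91 in IL-7 alone and 9.97 and 10.39 ex vivo, and fell by 2.97 (adjusted p = 0.00524). Ctla2a, an inhibitor of cathepsin-like proteases, fell by 4.44 (adjusted p = 0.000477) to 4.83 and 6.04, against 9.61 and 10.14 ex vivo. Neurl3, a ubiquitin ligase, fell by 2.67 (adjusted p = 0.00154) and Nkg7, a protein of cytotoxic granules, by 2.22 (adjusted p = 0.00384). These falls from ex vivo held in every alternative, but the difference from IL-7 alone was less firm. Over the 6 settings that leave out 1 naive array, the class was kept in 6 for Il18r1, 4 for Klrd1, 3 for Vim, 3 for Ctla2a, 1 for Nkg7 and 0 for Neurl3. The difference from IL-7 alone was lost without naive IL-7 1 for Klrd1 (adjusted p = 0.127), Vim (0.234), Ctla2a (0.117) and Neurl3 (0.206), and without naive IL-7 2 for Vim (0.155), Ctla2a (0.281) and Neurl3 (0.31). The count of 30 was 3 without naive IL-7 1, 11 without naive IL-7 2, 18 without naive ex vivo 1, 16 without naive ex vivo 2, 9 without array 1 and 236 without array 2 of the cells in both cytokines, and 47 without memory medium 2.

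Memory cells offered a check on separate arrays, since memory cells in both cytokines and in IL-7 share no array with the naive groups. There IL-4 added to IL-7 raised 167 of all genes (1.21%) and lowered 82 (0.595%). Of the 95 genes driven up in naive cells, 52 also rose in memory cells (54.7%), none fell, and 94 had a positive difference, with a median of 1.20 beside 0.08 over all genes. Cbr3 rose by 5.35 there (adjusted p = 1.28e-07), Pros1 by 4.52 (adjusted p = 3.65e-06), Slc2a6 by 4.22 (adjusted p = 1.14e-06) and H2-DMa by 3.19 (adjusted p = 2.15e-07). Of the 30 genes driven down, 11 also fell in memory cells (36.7%), with a median of -0.78, among them Klrd1 at -2.78 (adjusted p = 0.00224) and Neurl3 at -2.98 (adjusted p = 0.00181). Vim and Ctla2a, at -1.48 and -0.17 in memory cells, did not pass the test. Ptpn3 differed between the cell types: its change from ex vivo to both cytokines was larger in naive than in memory cells by 3.14 (adjusted p = 0.00353), in a test that called 0.0508% of all genes.

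IL-7 alone moved 43 genes that IL-4 moved back. For 20 of them the difference from ex vivo was shown to be small, between -0.45 and 0.25 with intervals inside a 2-fold change, while the median size of the change in IL-7 alone was 1.10. IL-7 alone had raised 12 of these 20 and lowered 8. An interval inside a 2-fold change was common, at 63.1% of all genes tested. The 2 opposite calls share the 2 IL-7 arrays with opposite sign, so an error on an IL-7 array enters both of them. The genes just inside the margin were Tmem158 and Ydjc, whose farther bounds lay 0.98 and 0.95 from 0, and those just outside were Slc37a3 and Pde2a, at 1.04 and 1.06. The count of 20 was 10 without naive ex vivo 1, 6 without naive ex vivo 2, 4 without naive IL-7 1, 7 without naive IL-7 2, 6 without array 1 and 86 without array 2 of the cells in both cytokines, and 47 without memory medium 2.

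Ecm1, a secreted matrix protein, was the strongest case and the only held gene kept under all 15 alternatives. It stood at 6.4 and 6.84 in both cytokines, against 10.11 and 10.31 in IL-7 alone and 6.61 and 6.56 ex vivo. The ex vivo arrays lay between the 2 arrays with IL-4, and both IL-7 arrays were far above. IL-7 alone raised it by 3.62 (adjusted p = 3.95e-06), and the difference of both cytokines from ex vivo was 0.04 (95% interval -0.49 to 0.56). Olfml3, a secreted olfactomedin-like protein, stood at 5.01 and 5.04 in both cytokines, against 7.25 and 7.25 in IL-7 alone and 5.36 and 5.38 ex vivo. Tent5a, an RNA-tailing enzyme, stood at 8.39 and 8.47 in both cytokines, against 10.42 and 10.36 in IL-7 alone and 7.83 and 8.68 ex vivo. Rexo2, an exonuclease of short RNAs, stood at 10.10 and 10.94 in both cytokines, against 11.79 and 11.73 in IL-7 alone and 10.69 and 10.38 ex vivo. In each, the IL-7 arrays were above the other 4. Those 4 overlapped for Tent5a and Rexo2, and for Olfml3 the arrays with IL-4 lay just under the ex vivo ones.

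Among genes that IL-7 alone lowered, Gfi1, a transcriptional repressor that restrains IL-7 receptor expression in T cells, stood at 9.76 and 10.30 in both cytokines, against 7.74 and 8.86 in IL-7 alone and 10.45 and 10.09 ex vivo. Xdh, xanthine dehydrogenase, stood at 6.52 and 6.72 in both cytokines, against 5.10 and 5.50 in IL-7 alone and 6.75 and 7.05 ex vivo. Abcb1a, the drug efflux pump P-glycoprotein, stood at 8.60 and 9.07 in both cytokines, against 7.01 and 7.43 in IL-7 alone and 8.63 and 9.0 ex vivo. In these 3 genes the IL-7 arrays were the lowest. IL-7 alone lowered Gfi1 by 1.97 (adjusted p = 0.00243), Xdh by 1.60 (adjusted p = 0.00119) and Abcb1a by 1.60 (adjusted p = 0.00181), and the intervals against ex vivo with both cytokines ran from -0.89 to 0.42, -0.73 to 0.17 and -0.49 to 0.52. Satb1, a chromatin organiser of T cells, and Ikzf3, the Ikaros-family factor Aiolos, were held after a fall in IL-7 alone (-1.09 and -0.87), and Runx3, a factor of the CD8 lineage, after a rise (0.69).

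These held genes rest on single arrays in part. Without naive IL-7 1 the turn back by IL-4 was lost for Gfi1 (adjusted p = 0.153), Xdh (0.116), Abcb1a (0.0595), Tent5a (0.127) and Rexo2 (0.144). Olfml3 left the class without either ex vivo array or array 2 of the cells in both cytokines, with differences from ex vivo of -0.34 to -0.36 and both calls kept. In memory cells 2 of the 20 held genes differed between both cytokines and IL-7 in the same direction as in naive cells. Over all genes 1.21% were higher and 0.595% lower there. The sign was the same for 14 of the 20, a share that was not set against all genes.

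**Figure D3:**
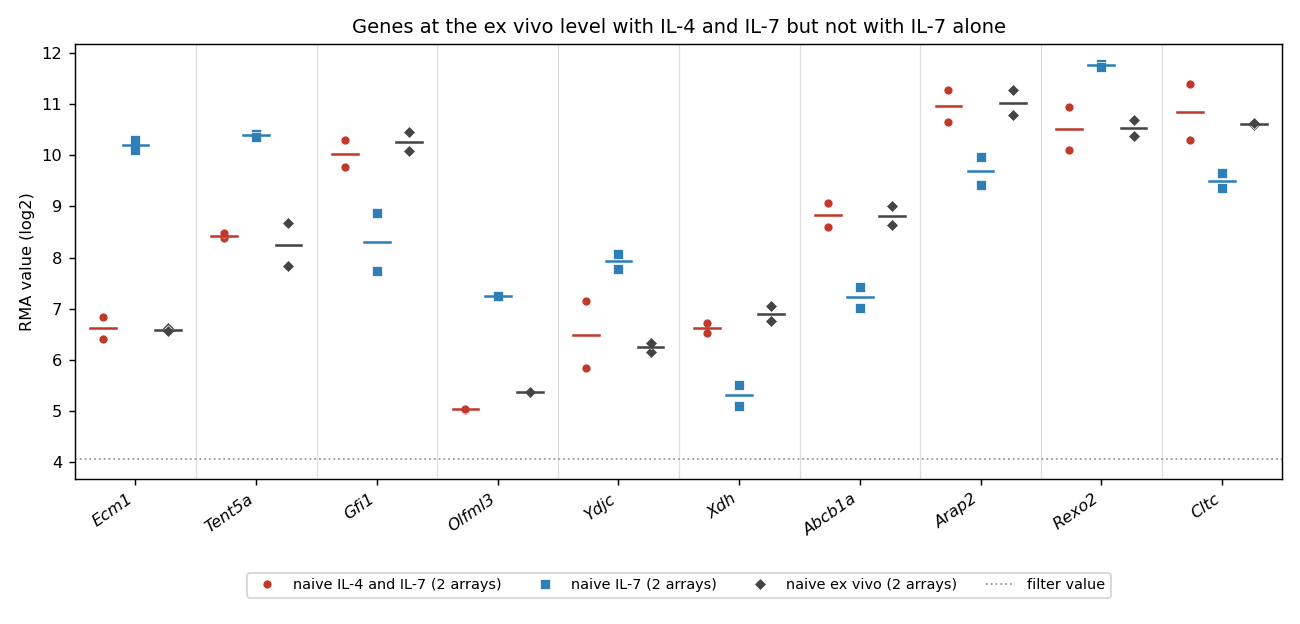
Log2 RMA values of the 10 held genes with the largest change in IL-7 alone, on each naive array, drawn as naive cells in IL-4 and IL-7 (circles), IL-7 alone (squares) and ex vivo (diamonds), with bars at group means and a dotted line at 4.06. Circles and diamonds share a range in most genes, while the squares lie apart, at 10.11 and 10.31 for Ecm1 and at 7.01 and 7.43 for Abcb1a.

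A further 15 genes had the same opposite calls but an interval too wide to call them held. Dusp10, a phosphatase of stress kinases, stood at 12.46 and 11.74 in both cytokines, against 8.20 and 7.98 in IL-7 alone and 12.50 and 12.23 ex vivo. Frmd4b, a scaffold protein, stood at 10.31 and 10.42 in both cytokines, against 3.06 and 5.49 in IL-7 alone and 9.67 and 9.86 ex vivo. Cst7, the cathepsin inhibitor cystatin F of cytotoxic cells, stood at 10.80 and 11.53 in both cytokines, against 8.31 and 8.62 in IL-7 alone and 10.63 and 10.25 ex vivo. In all 3 the IL-7 arrays stood below the other 4, but the differences from ex vivo, -0.26, 0.60 and 0.72, had standard errors of 0.75, 1.16 and 0.35. Of the remaining opposed genes, 2 were only partly turned back: Gpr34, an orphan receptor, and Myo6, an unconventional myosin, were still higher than ex vivo by 1.54 and 1.33 (adjusted p = 0.0104 and 0.0169), but neither call was firm. Gpr34 lost it without naive ex vivo 2 (adjusted p = 0.0708) or array 2 of the cells in both cytokines (0.0689), and Myo6 without naive ex vivo 1 (0.0742), naive ex vivo 2 (0.0873) or array 1 of the cells in both cytokines (0.0888). The other 6 went past the ex vivo level and are counted among the driven genes, Atp10a below it and the 5 named above over it.

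Interferon-stimulated genes, which respond to type I or II interferon, stood differently in the 2 cultures. In both cytokines 5 of 31 rose and 5 fell against ex vivo, beside 8.9% and 5.85% of all genes. In IL-7 alone 13 fell and none rose, beside 5.8% and 7% of all genes. Between the cultures 6 were higher in both cytokines than in IL-7, beside 0.879% of all genes. The median change was 0.31 in both cytokines and -0.99 in IL-7 alone. Of the 13 genes that fell in IL-7 alone, 8 were not called in both cytokines. Irf7, the regulator of interferon production, stood at 10.12 and 9.42 in both cytokines, against 7.54 and 7.90 in IL-7 alone and 8.89 and 9.88 ex vivo. The ex vivo and the both-cytokine arrays overlapped, above the IL-7 arrays.

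Gbp2, a guanylate-binding protein, stood at 11.86 and 12.24 in both cytokines, against 9.70 and 11.11 in IL-7 alone and 10.41 and 11.24 ex vivo, a rise of 1.23 (adjusted p = 0.0392) that was lost without naive ex vivo 1 (adjusted p = 0.283), array 1 (0.0743) or array 2 (0.153) of the cells in both cytokines. Rsad2, the antiviral protein viperin, stayed low in both cultures, at 6.63 and 7.64 in both cytokines, against 6.73 and 6.93 in IL-7 alone and 9.64 and 10.76 ex vivo. It fell by 3.06 (adjusted p = 0.0126), lost without naive ex vivo 2 (adjusted p = 0.112) or array 1 of the cells in both cytokines (0.0865). Oas3, an antiviral oligoadenylate synthase, fell by 1.38 (adjusted p = 0.002) in every alternative. The list's counts, 5 higher and 5 lower, were 1 and 5 without naive ex vivo 1, 3 and 1 without naive ex vivo 2, 2 and 2 without array 1 of the cells in both cytokines and 1 and 4 without array 2. The 2 ex vivo arrays themselves differed on this list, as for Mx1, at 5.11 and 6.79.

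Of 111 memory-type genes (0.806% of those tested), 13 were higher in naive cells in both cytokines than in naive cells ex vivo (11.7%, beside 8.9% of all genes) and 12 were lower (10.8%, beside 5.85%). The median change over the 111 was 0.03, beside 0.05 over all genes. The comparison that defines these genes uses the same naive ex vivo arrays, so these shares are a description. The 13 genes were Nt5e, Map3k8, Mdfic, Cdh1, Ddr1, Mfsd13a, Pomgnt2, Kcnk6, Aopep, Smpdl3b, Serpinb6a, Pde8a and Car11. IL-4 drove 2 of them, Map3k8 and Cdh1, 5 were shared with IL-7 culture, and 6 were called against ex vivo only. Against memory cells ex vivo, where 30.7% of all genes differed, 6 of the 13 were not called, 6 were lower and 1 was higher. The count of 13 was 7 without naive ex vivo 1, 5 without naive ex vivo 2 and 21 without memory medium 2, with all 13 among the 21.

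Cdh1, the adhesion molecule E-cadherin, stood at 6.66 and 5.75 in naive cells in both cytokines and 2.92 and 3.0 in IL-7 alone, against 3.64 and 3.59 in naive cells ex vivo, and averaged 7.16 in memory cells ex vivo. Only the arrays with IL-4 were above the filter value among the naive ones. It rose by 2.59 (SE 0.37, adjusted p = 0.000668) and differed from memory cells by -0.95 (adjusted p = 0.0345), with 1 of the 4 memory arrays far from the others. Map3k8, the kinase TPL2 of the ERK pathway, stood at 9.85 and 9.25 in both cytokines and 7.45 and 7.68 in IL-7 alone, against 7.02 and 6.86 ex vivo, with a memory mean of 8.61. It rose by 2.61 (SE 0.39, adjusted p = 0.000948), past the memory level by 0.94 (adjusted p = 0.0461). In memory cells IL-4 on top of IL-7 raised both genes too, Cdh1 by 1.61 (adjusted p = 0.0372) and Map3k8 by 2.58 (adjusted p = 0.00274).

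Nt5e, the ecto-enzyme CD73 that makes adenosine, was the largest of the 13. It stood at 7.78 and 7.22 in both cytokines and 6.64 and 6.50 in IL-7 alone, against 4.09 and 4.75 ex vivo, with a memory mean of 7.07. Both cultures lay above the ex vivo arrays, and the rise of 3.08 (SE 0.30, 8.43-fold, adjusted p = 2.97e-05) left a difference of 0.42 from memory cells (adjusted p = 0.22). The other Nt5e probe sets changed by 0.15 and -0.10, and the mean of all of them rose by 1.04. Mdfic, a regulator of transcription and of ion channels, rose by 2.59 (adjusted p = 0.00311) to 6.39 and 8.14, against 4.69 and 4.65 ex vivo, and averaged 7.12 in memory cells. Ddr1, a collagen receptor kinase, rose by 2.35 (adjusted p = 0.0015), but other probe sets of Ddr1 hardly moved, and the mean of all of them gave 0.64 (adjusted p = 0.0561). Mfsd13a, Pomgnt2, Kcnk6, Aopep and Smpdl3b rose by 0.75 to 1.70, and each lost its call or its place among the memory-type genes in at least 2 of the 4 settings that leave out 1 array compared. Map3k8 and Mdfic kept their rises in every setting but left the memory-type genes without either ex vivo array, and Ddr1 did so without naive ex vivo 2. Pde8a was kept in 7 of 15 settings and Car11 in 10.

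**Figure D4:**
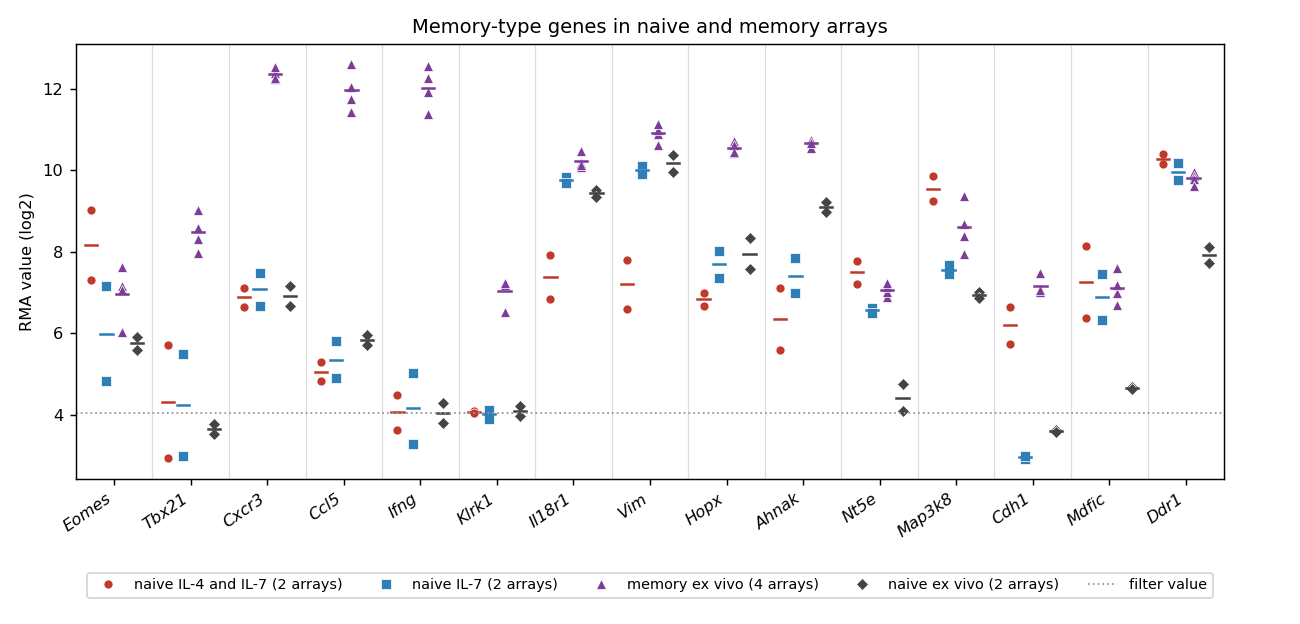
Log2 RMA values of 15 memory-type or memory-associated genes on each array of naive cells in IL-4 and IL-7 (circles, 2 arrays), naive cells in IL-7 (squares, 2), memory cells ex vivo (triangles, 4) and naive cells ex vivo (diamonds, 2), with bars at group means and a dotted line at 4.06. For Cxcr3, Ccl5 and Ifng the circles lie near the diamonds and at least 4 log2 units below every triangle, and for Nt5e, Map3k8, Cdh1, Mdfic and Ddr1 the circles lie above the diamonds.

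Several genes that separate memory from naive cells by a wide margin were not called in naive cells in both cytokines against ex vivo. Ifng averaged 12.03 in memory cells, and its difference between naive cells in both cytokines and ex vivo was 0.01 (95% interval -1.25 to 1.28). Cxcr3, the receptor of interferon-induced chemokines, stood at 6.64 and 7.13 in both cytokines, against 6.67 and 7.16 in naive cells ex vivo, and averaged 12.36 in memory cells. Ccl5, the chemokine RANTES, stood at 4.82 and 5.30, against 5.97 and 5.71 ex vivo, and averaged 11.96 in memory cells. Klrk1, the activating receptor NKG2D, stood at 4.11 and 4.05, against 3.97 and 4.21, and averaged 7.05 in memory cells. All 4 were far under memory cells (-7.97, -5.47, -6.90 and -2.97, adjusted p from 8.45e-09 to 3.78e-07), and the 95% intervals against naive ex vivo were -0.75 to 0.68 for Cxcr3 and -0.51 to 0.48 for Klrk1. The granzymes Gzma, Gzmb and Gzmm were not called, with differences of 0.23, -0.50 and -0.26.

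Among transcription factors of memory cells, Eomes passed the test and Tbx21 did not. Eomes, which IL-4 is known to induce, stood at 7.32 and 9.03 in both cytokines and 4.83 and 7.16 in IL-7 alone, against 5.60 and 5.92 ex vivo, and averaged 6.97 in memory cells. Both arrays with IL-4 were above the ex vivo ones and overlapped with the memory range in part. The rise of 2.42 (SE 0.66, adjusted p = 0.0257) was lost without naive ex vivo 1 (adjusted p = 0.118), naive ex vivo 2 (0.095) or array 2 of the cells in both cytokines (0.176). Against IL-7 alone the Eomes difference of 2.18 was not called, nor was that of 0.88 on its other probe set. Tbx21, which encodes T-bet, stood at 2.94 and 5.71 in both cytokines, against 3.53 and 3.77 ex vivo, and averaged 8.48 in memory cells, with no call against ex vivo (0.67, adjusted p = 0.658). Cd44, a surface marker of memory cells, stood at 3.50 and 7.71 in both cytokines, against 6.67 and 6.57 ex vivo, so its 2 arrays lay on either side of the ex vivo values. Its change of -1.02 (adjusted p = 0.6) became -3.13 (adjusted p = 0.0242) without array 2.

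Of the memory CD8 list, 9 of 32 genes fell and 2 rose, Eomes and Prdm1, beside 5.85% and 8.9% of all genes. The list's median was -0.25, beside 0.05 over all genes. In IL-7 alone 2 fell and none rose, beside 5.8% and 7% of all genes. Between the cultures 2 were lower in both cytokines than in IL-7 alone (median -0.17), beside 0.378% of all genes. Besides Vim and Il18r1, the fallen genes included Ahnak, a giant scaffold protein, at 5.60 and 7.12 in both cytokines, against 9.22 and 8.97 ex vivo, and fell by 2.74 (adjusted p = 0.00103). Il2rb, the IL-2 and IL-15 receptor chain that lets memory cells respond to IL-15, stood at 6.07 and 6.39 in both cytokines, against 7.83 and 8.38 ex vivo. It fell by 1.88 (adjusted p = 0.0304), a call lost when any of these 4 arrays was left out, with adjusted p from 0.059 to 0.186. Crip1, Lgals1, Id2 and Hopx changed by -1.99, -2.10, -1.4 and -1.12, all of them falls past the threshold, and all 4 calls were lost without array 1 of the cells in both cytokines, with adjusted p up to 0.166. The list's count of 9 was 4 without naive ex vivo 1, 5 without naive ex vivo 2 and 4 without array 1 of the cells in both cytokines, and the Prdm1 rise of 0.70 was lost without naive ex vivo 2 or either array of the cells in both cytokines (adjusted p up to 0.276).

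The 12 memory-type genes that fell further from the memory level were Ahnak, Arsb, Bank1, Cd86, Ctla4, Cxcr5, Gpr183, Hopx, Marchf3, Plat, Sdcbp2 and Serpinb1a. Ctla4, the inhibitory receptor, stood at 7.57 and 8.73 in both cytokines and 8.86 and 8.73 in IL-7 alone, against 11.57 and 10.48 ex vivo, and averaged 13.41 in memory cells. Cd86, a ligand of CD28 and CTLA-4, stood at 5.50 and 5.43 in both cytokines and 5.34 and 5.21 in IL-7 alone, against 6.91 and 7.16 ex vivo. Both cultures lay below the ex vivo arrays for both genes, with changes of -2.88 (adjusted p = 0.000528) and -1.57 (adjusted p = 0.00126). Serpinb1a, a protease inhibitor, fell by 2.18 (adjusted p = 0.00294) and Bank1, a signalling scaffold known from B cells, by 1.38 (adjusted p = 0.000845). Other calls were less firm. Marchf3 lost its call without each of the 4 arrays compared, Gpr183 and Sdcbp2 without either ex vivo array or array 1 of the cells in both cytokines, Cxcr5 without naive ex vivo 2 or that array 1, Hopx without naive ex vivo 1 or that array 1, and Plat without naive ex vivo 1, with adjusted p up to 0.167. Arsb changed by -0.08 (adjusted p = 0.842) on the mean of its probe sets.

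A second definition of memory-type genes avoided the shared arrays. It took the 155 genes (1.13% of those tested) at least 1 higher in memory than in naive cells after IL-7, arrays that do not enter the comparison with ex vivo. Of these, 10 were higher in both cytokines than ex vivo (6.45%, beside 8.9% of all genes) and 35 were lower (22.6%, beside 5.85%), with a median of -0.19. This definition picks genes that are low in naive cells in IL-7, so its shares are a description too. In IL-7 alone 30 of the 155 were lower than ex vivo and 4 were higher, beside 5.8% and 7% of all genes. Between the cultures, 6 of the 155 were lower in both cytokines than in IL-7 alone and 5 were higher. Over all genes these shares were 0.378% and 0.879%. The definitions shared 72 genes, which are 64.9% of the first set and 46.5% of the second, and 8 of the 72 were higher in both cytokines. Conversely, 82 naive-type genes were at least 1 lower in memory than in naive cells ex vivo. Of them 30 were lower in both cytokines (36.6%, beside 5.85% of all genes) and 4 were higher (4.88%, beside 8.9%). The same ex vivo arrays again stood on both sides.

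Genes known as targets of each cytokine changed in both directions. In the list for IL-4 and STAT6, 8 of 22 were higher and 2 lower, with a median of 0.34, and in that for IL-7 and STAT5, 8 of 23 were higher and 2 lower, with a median of 0.13. In IL-7 alone the counts were 4 and 5 for the IL-4 list and 8 and 1 for the IL-7 list. Over all genes 8.9% were higher and 5.85% lower in both cytokines, and 7% and 5.8% in IL-7 alone. The 8 rises of the IL-4 list were 4 without naive ex vivo 1, 5 without naive ex vivo 2 and 4 without array 2 of the cells in both cytokines, and those of the IL-7 list were 5 without naive ex vivo 1. Socs1, an inhibitor of JAK kinases, stood at 8.52 and 8.33 in both cytokines, against 7.15 and 7.31 in IL-7 alone and 6.35 and 6.01 ex vivo, a rise of 2.25 (adjusted p = 0.000477). Bcl2, the survival protein induced by IL-7, stood at 11.58 and 11.27 in both cytokines, against 11.56 and 11.25 in IL-7 alone and 9.26 and 8.72 ex vivo. The cultures differed by 0.02 (SE 0.38) and both lay above the ex vivo arrays, by 2.43 with both cytokines (adjusted p = 0.00123). Myc, a driver of growth, rose by 2.17 (adjusted p = 0.00241) and Lta, the cytokine lymphotoxin alpha, by 2.73 (adjusted p = 0.000474), also in both cultures.

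The receptors of the cytokines went different ways. Il4ra, the IL-4 receptor chain, stood at 13.25 and 11.98 in both cytokines, against 10.67 and 10.52 in IL-7 alone and 10.90 and 11.20 ex vivo. Its arrays did not overlap with ex vivo, but the difference of 1.57 was not called (adjusted p = 0.0962), except without memory medium 2 (adjusted p = 0.00334). Il7r, the IL-7 receptor chain, stood at 11.06 and 10.55 in both cytokines, against 11.90 and 11.41 in IL-7 alone and 12.25 and 11.94 ex vivo. It fell by 1.29 (adjusted p = 0.024), a call lost without naive ex vivo 1 (adjusted p = 0.13), naive ex vivo 2 (0.0742) or array 2 of the cells in both cytokines (0.121). Il2ra, the high-affinity IL-2 receptor chain, stood at 4.59 and 8.13 in both cytokines and 5.31 and 7.58 in IL-7 alone, against 3.42 and 3.67 ex vivo. Its rise of 2.81 (adjusted p = 0.0446) was lost without array 2 of the cells in both cytokines (1.05, adjusted p = 0.392) or either ex vivo array (adjusted p = 0.159 and 0.146). Cish, another feedback inhibitor, rose by 2.77 (adjusted p = 0.00915), lost without naive ex vivo 1 (adjusted p = 0.0688) or array 2 (0.0547).

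Cholesterol synthesis was the metabolic list with the most changes. Of 19 genes tested 11 rose and 1 fell, with a median of 0.78, beside 8.9% and 5.85% of all genes. In IL-7 alone 9 rose and 1 fell, with a median of 0.60, beside 7% and 5.8% of all genes. No member was called between the cultures. Mvd, which makes isopentenyl pyrophosphate, stood at 9.29 and 8.62 in both cytokines, against 8.70 and 8.83 in IL-7 alone and 6.69 and 7.16 ex vivo, a rise of 2.02 (adjusted p = 0.000166). Msmo1, Fdft1 and Sqle, enzymes from squalene onwards or just before it, rose by 1.86, 1.39 and 1.28, each in every alternative. Insig1, which restrains the pathway, stood at 8.12 and 8.50 against 9.02 and 9.47 ex vivo. It fell by 0.93 (adjusted p = 0.0404), a call lost without naive ex vivo 1 (0.0598), naive ex vivo 2 (0.266) or array 1 of the cells in both cytokines (0.205). The count of 11 was 6 without naive ex vivo 1, 7 without naive ex vivo 2 and 6 without array 2 of the cells in both cytokines.

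**Figure D5:**
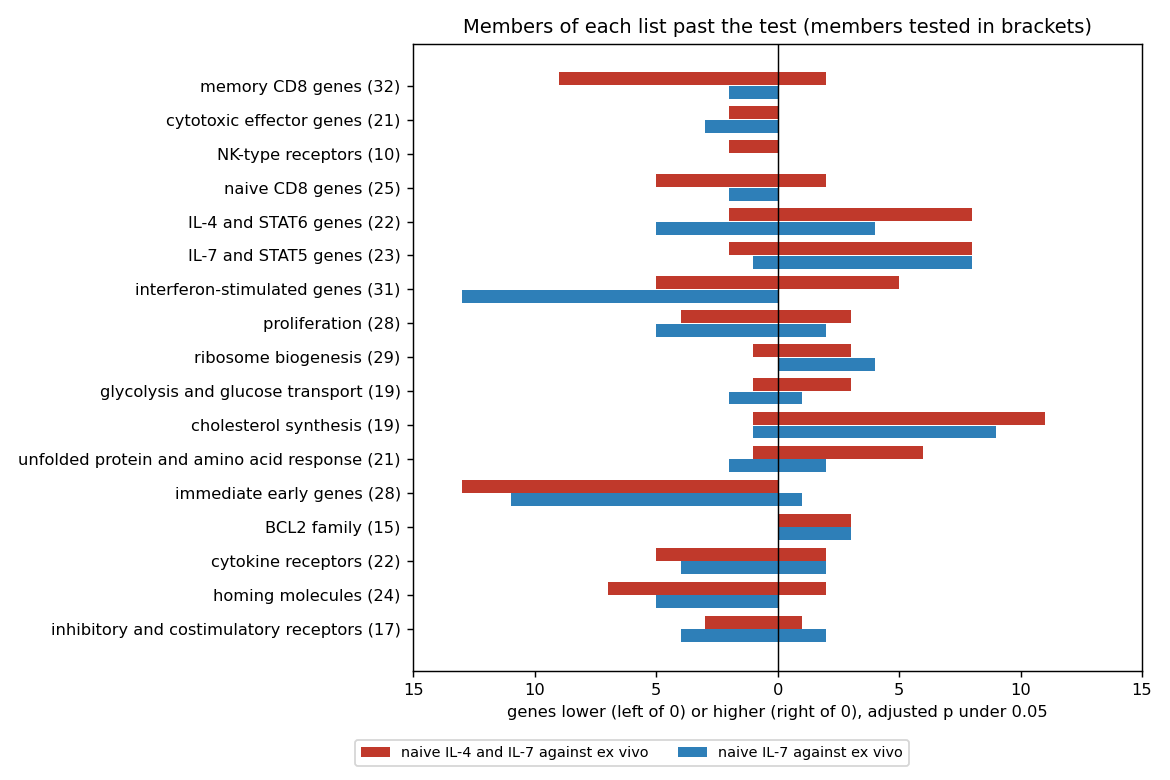
Number of genes of each list higher (right of 0) or lower (left of 0) than in naive cells ex vivo, at adjusted p under 0.05, for naive cells in IL-4 and IL-7 (red, upper bar) and in IL-7 alone (blue, lower bar), with the number of members tested in brackets. Both comparisons use the same 2 ex vivo arrays. Over all genes, 8.9% were higher and 5.85% lower in both cytokines, and 7% and 5.8% in IL-7 alone. Red and blue bars are alike for immediate early genes (13 and 11 lower) and cholesterol synthesis (11 and 9 higher) and unlike for interferon-stimulated genes (5 and 13 lower) and memory CD8 genes (9 and 2 lower, with 2 members called lower in both cytokines than in IL-7).

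Cell division genes changed in both directions, with 3 of 28 higher and 4 lower, beside 8.9% and 5.85% of all genes. Their median change was -0.24, and both counts were smaller without naive ex vivo 2. Mki67 stayed under the filter value, at 3.66 and 3.44 in both cytokines, against 3.74 and 3.31 ex vivo. Mcm2, a subunit of the replicative helicase, rose by 1.13 (adjusted p = 0.0042), while Cdc6, which loads that helicase, fell by 2.04 (adjusted p = 0.00497). Of 21 genes of the unfolded protein and amino acid response 6 rose and 1 fell, beside 8.9% and 5.85% of all genes. The gene that fell was Dnajb9, a chaperone of the endoplasmic reticulum, by 2.37 (adjusted p = 0.00201). The 6 rises were 0 without naive ex vivo 1, 3 without naive ex vivo 2 and 1 without array 2 of the cells in both cytokines. Ribosome biogenesis had 3 of 29 higher and 1 lower, and glycolysis and glucose transport 3 of 19 higher and 1 lower, beside 8.9% higher and 5.85% lower over all genes, with medians of -0.16 and -0.10. The ribosome list had 1 higher and 0 lower without either ex vivo array, and 2 higher and 3 lower without array 2 of the cells in both cytokines.

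Among trafficking and receptor genes, beside 8.9% higher and 5.85% lower over all genes, 7 of 24 homing molecules fell and 2 rose. Of 22 cytokine receptors 5 fell and 2 rose, and of 17 inhibitory and costimulatory receptors 3 fell and 1 rose, with medians of -0.17, -0.24 and -0.11. Cxcr4, the receptor of the bone marrow chemokine CXCL12, stood at 6.67 and 7.11 in both cytokines, against 6.88 and 7.10 in IL-7 alone and 9.79 and 9.29 ex vivo. It fell by 2.65 (adjusted p = 0.0131), a call lost without naive ex vivo 1 (adjusted p = 0.08), naive ex vivo 2 (0.0505) or array 1 of the cells in both cytokines (0.0727). Cd28, the main costimulatory receptor, fell by 2.52 (adjusted p = 0.00258) in every alternative. The lymph node homing receptor Ccr7, at 11.06 and 10.61 in both cytokines, against 11.09 and 11.81 ex vivo, was not called, nor was Klf2, a factor that keeps naive cells circulating (0.02, 95% interval -0.56 to 0.59). The 7 homing genes that fell became 2 without naive ex vivo 1, 1 without naive ex vivo 2 (with 1 higher) and 4 without array 1 of the cells in both cytokines. The cytokine receptor count of 5 was 1 without naive ex vivo 1 and 3 without any of the other 3 arrays compared, with 3 higher as well without array 2 of the cells in both cytokines. The inhibitory and costimulatory list had 4 higher and 2 lower without array 1 of those cells.

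Of 25 naive CD8 genes 5 fell and 2 rose, beside 5.85% and 8.9% of all genes. Myb, a transcription factor of resting and stem-like T cells, stood at 7.95 and 9.76 in both cytokines, against 8.38 and 9.94 in IL-7 alone and 12.81 and 12.76 ex vivo, a 15.2-fold fall (-3.93, adjusted p = 0.000711) that both cultures shared. Lef1, another factor of naive cells, stood at 11.11 and 11.20 in both cytokines, against 11.51 and 11.28 ex vivo, with an interval from -0.81 to 0.33. The naive CD8 count of 5 was 1 without naive ex vivo 1, 2 without naive ex vivo 2, 3 without array 1 of the cells in both cytokines and 2 without array 2. Of 21 cytotoxic effector genes none rose and 2 fell, and of 10 NK-type receptors none rose and 2 fell, Klrd1 and Hcst. The shares over all genes were again 8.9% higher and 5.85% lower. Without array 1 of the cells in both cytokines 2 cytotoxic genes were higher, and Hcst lost its call without that array or either ex vivo array, with adjusted p up to 0.127. The summed level of the NK cell markers was 9.52 to 10.41 in both cytokines, against 11.96 to 12.31 ex vivo, and followed Nkg7, while Ncr1 stood at 4.40 and 4.08, against 4.25 and 4.42. Both cytokines raised 8.9% and lowered 5.85% of all genes, and IL-7 alone raised 7% and lowered 5.8%. In the BCL2 family 3 of 15 were higher and none lower in either culture. They were Bcl2, Bid and Bcl2l12, and the count was 1 without naive ex vivo 2 or array 2 of the cells in both cytokines.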

How the data were processed

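RNA of sorted mouse CD8 T cells was measured on 18 arrays in 8 groups. The authors deposited log2 values per probe set, made with RMA per the submitters' processing notes, which also name limma; versions are not given in the sources used here. Probe sets were named from the platform annotation: of 45101, 34958 had 1 gene symbol, 932 had several and 9211 had none. Each of 18194 genes was represented by its brightest probe set, judged by the mean of the 18 arrays. Genes that did not exceed 4.06, the 40th percentile of the values, on 2 arrays or more were left out, so 13770 were tested. A single linear model over all 18 arrays was fitted with limma 3.58.1 in R 4.3.3 (lmFit and eBayes, 10 residual and 4.13 prior degrees of freedom), and every adjusted p is Benjamini-Hochberg over all genes tested, with 0.05 as the threshold. Comparisons with ex vivo share the same 2 ex vivo arrays. The code was tested on simulated data.

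Genes were named by rank within each class (8 largest rises and falls, 8 driven up, 5 driven down, 10 held, 10 memory-type), by a list of known genes and by the extremes of each gene list, and other named genes were chosen after their values were seen. The members and gene lists were chosen with earlier results of these data known. Some genes of the list of known genes were not analysed here. Alternatives were each naive array left out in turn, memory medium 2 left out, a replicate block, naive arrays only and no filter. Others were the mean of a gene's probe sets, median centring, an intensity trend, a change of at least 1 and a margin of 1.5. No other memory array was left out singly, so the dependence of the memory groups on single arrays was not tested. The number of arrays limits the precision. No duplicate arrays were found, since no pair shared more than 34 identical values.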

Additional observations from a re-analysis of the deposited data

Results flagged for a closer look

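In 7 genes the change from ex vivo to both cytokines differed between naive and memory cells (limma interaction term, 0.0508% of genes, with 699 at an unadjusted p under 0.05). Ptpn3 changed by 3.14 more in naive than in memory cells (adjusted p = 0.00353). Klrk1 differed by 2.35 (adjusted p = 0.0154), with -0.02 in naive cells and -2.37 in memory cells. Its level in naive cells ex vivo was already near the filter value of 4.06, with little room for a fall. The part of this in the difference was not tested. H2-Q2 differed by 2.01, Papss2 by 1.84 and Dhrs3 by 1.57, each with the larger rise in naive cells. Armcx4 differed by -2.02 and Oas3 by -1.90, each with a fall in naive cells. Among the 4 memory ex vivo arrays, Cdh1 had 1 array far from the others, with a gap of 0.85 of the whole range, a size that chance gives in about 1 group of 20. Of 5307 probe sets with no or several gene symbols, 185 were higher and 252 lower in naive cells in both cytokines than ex vivo, and they enter no count of genes.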

How the results depend on the processing

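No named gene called with all arrays changed sign in the alternatives tried, but Tbx21 (-0.71 to 2.06), Cxcr3, Cd44 (-3.13 to 1.09), Gzma (-0.40 to 0.87), Gzmb (-1.22 to 0.21), Ifng, Klrk1, Klf2 and Mki67, none of them called with all arrays, had values on both sides of 0. Over 88 named genes and 14 settings, 1119 of 1232 values kept their side of the threshold, 105 lost the call and 8 gained it. When 1 naive array was left out, genes that differed from ex vivo ranged from 699 to 1933 (2032 with all arrays), higher genes from 390 to 1077, lower genes from 309 to 913, genes driven up from 41 to 166, genes driven down from 3 to 236, held genes from 4 to 86 and memory-type genes gained from 5 to 14. Without memory medium 2 the counts were 2991 in all, 1907 higher, 1084 lower, 141 driven up, 47 driven down, 47 held and 21 gained. With a change of at least 1 they were 1248 in all, 724 higher, 524 lower, 16 driven down and 11 held. On the naive arrays only they were 40 driven up, 4 driven down and 5 held, and a margin of 1.5 held 31. The replicate numbers were not shown to pair the naive arrays, since replicate 1 minus replicate 2 correlated at 0.511 between the cultures but at -0.125 between both cytokines and ex vivo. With a replicate block 2368 genes differed, 1993 of them among the 2032. With the ex vivo numbers crossed, a setting chosen after seeing the data, 2358 differed and 32 were held. The causes of these shifts were not tested, beyond the smaller number of arrays in each such setting. With 2 arrays a group, every count rests on few arrays.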
